A study of Homo sapiens with 26 samples.

Results

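The replication-dependent histone genes supply the histones that package newly copied DNA. Those measured here were the array rows named for a single gene whose symbol is H1-1 to H1-6 or begins with H2AC, H2BC, H3C or H4C and a number, and they came to 58 of 18417 genes. They comprised 6 linker histone genes (H1), 14 of H2A, 17 of H2B, 8 of H3 and 13 of H4. By their older names, 49 belong to the HIST1 cluster on chromosome 6, 6 to HIST2 and 2 to HIST3 on chromosome 1, and 1 (H4C16) to HIST4 on chromosome 12. The rows of H4C14 and H4C15 held the same value on every array, so there were 57 distinct profiles, and H2BC19P is a pseudogene. A further 14 histone genes appeared only on rows that name several genes, 20 such rows in all, and are not analysed here. The coding sequences of these genes are nearly alike, so the value of any one of them may include transcripts of its copies.

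Replication-dependent histone genes lie in clusters, have no introns and are transcribed mainly in S phase, when the cell needs new nucleosomes. Their transcripts end in a stem-loop rather than a poly(A) tail; the stem-loop binding protein SLBP holds this end through processing, translation and decay, and NPAT drives transcription at the clusters. H3 and H4 form the tetramer at the centre of the nucleosome, H2A-H2B dimers complete it, and H1 binds the linker DNA. Histone variants such as H2A.Z and H3.3 are made throughout the cell cycle from polyadenylated transcripts. The values cannot tell apart transcripts with a stem-loop end and polyadenylated ones.

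Expression had been measured on 26 Affymetrix Human Gene 1.0 ST arrays of NCCIT, an established human embryonic carcinoma line, with 13 groups of 2 arrays. All cells, controls included, had been transfected with siRNA by the PepMute reagent. Both control groups (siNTC-1 and siNTC-2) received control siRNA. The depletion groups received siRNA against DNMT1, which copies methylation at replication (siDNMT1), against the methyltransferases DNMT3A or DNMT3B (siDNMT3A, siDNMT3B), or against their cofactor DNMT3L (siDNMT3L). The combinations with DNMT1 siRNA were siD1+3A+3B, siD1+3B and siD1+3A, and those without it were 3A+3B+3L, 3B+3L, 3A+3L and 3A+3B, in which D1, 3A, 3B and 3L stand for the same 4 targets. The labels give no time after transfection and do not say whether duplicates were separate cultures, so p-values measure only the spread between duplicates, which may be technical. In bulk RNA, fewer cells expressing a gene and less of its RNA per cell cannot be told apart.

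The deposited values are on a log2 scale with no detection calls, and they are signals of different probe sets, so only values of the same gene are compared below. A difference of 1 is a 2-fold change. A gene is called higher or lower when its adjusted p is under 0.05 in limma's moderated test after Benjamini-Hochberg adjustment over all 18417 genes, and errors of differences are standard errors. Duplicates correlated at 0.9973 to 0.9989. DNMT1 itself was lower than in the controls by log2 differences from -0.82 (siD1+3A+3B) to -1.35 (siDNMT1) in the groups given its siRNA. All 9 measured pluripotency markers, SOX2 and LIN28A among them, had means above those of at least 81.6% of genes, and all 15 measured lineage markers, such as PAX6 and GATA4, had means at or below the level of 42.6% of genes. When array rows that carry no gene symbol were reduced to their main axis of variation, 8 arrays lay on the side of siNTC-1 (siNTC-1, siDNMT1, siDNMT3B and siDNMT3L) and 18 on the side of siNTC-2 (all other groups). No label accounts for this division, which the values alone define, and the sides are not groups of the study. Every depletion is therefore given below against both controls together and against the control of its own side.

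The histone genes showed 2 patterns across the groups. A small set, led by H3C11 and H1-5, was high wherever DNMT1 siRNA had been given, on both sides of the division. A larger set, led by H2AC15, H2AC14 and the row shared by H4C14 and H4C15, was higher on one side of the division than on the other, and H2AC14 also varied between groups within a side. Many members did neither.

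**Figure D1:**
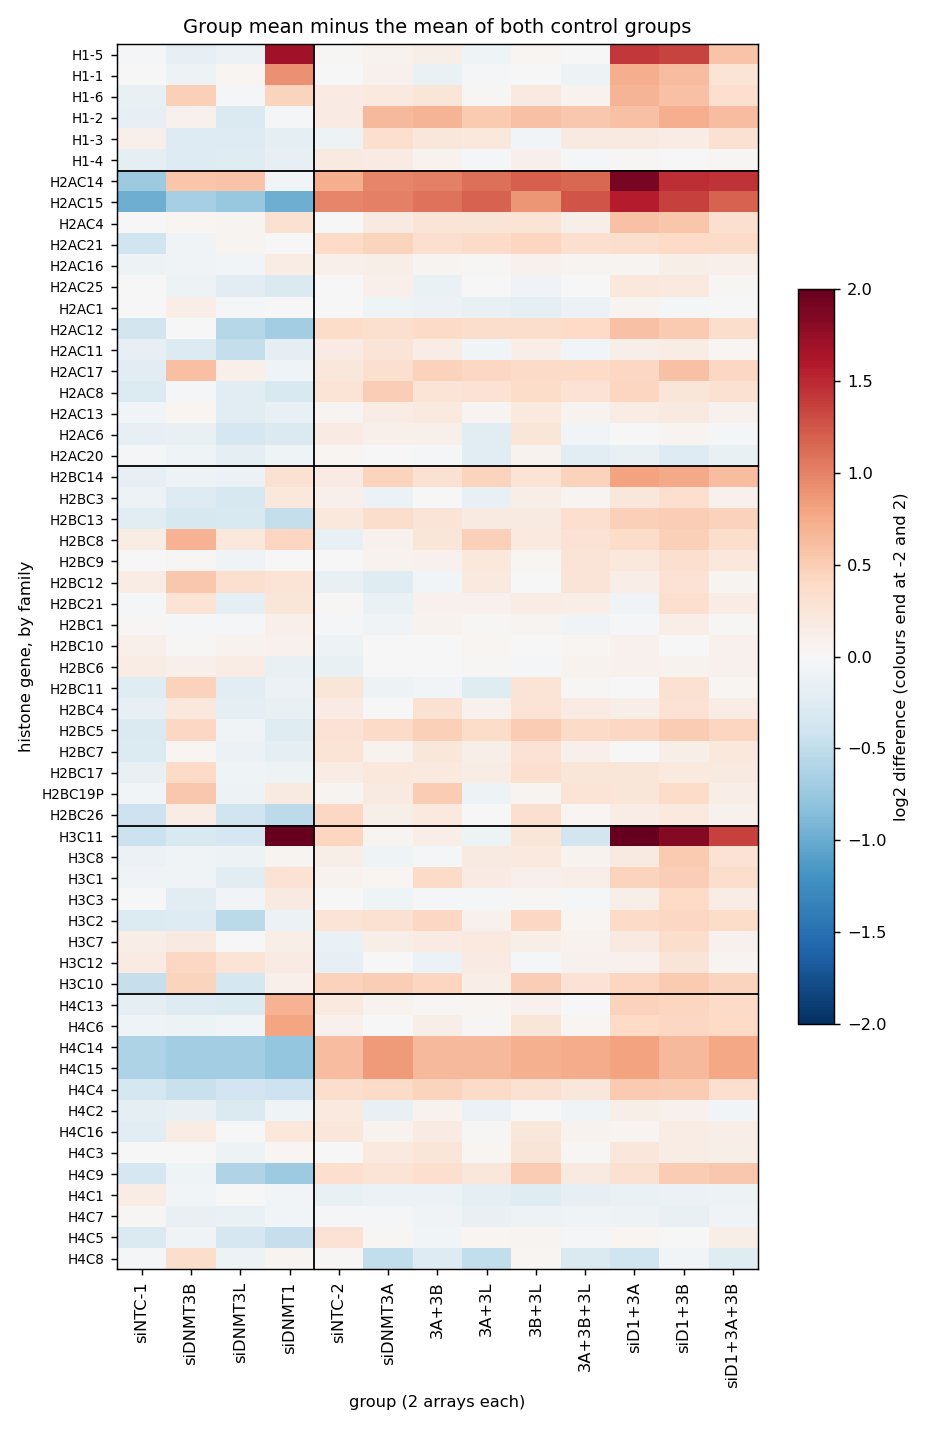
Group mean of each of the 58 histone genes minus the mean of both control groups (log2 difference, colour), with genes in rows by family and the 13 groups in columns, the vertical line dividing the groups beside siNTC-1 from those beside siNTC-2. H3C11 and H1-5 were red in the 4 columns with DNMT1 siRNA, and H2AC15, H4C14 and H4C15 changed colour at the line.

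The promoters of these genes are short and carry well-known elements. RefSeq start sites on GRCh38.p14 gave a promoter for 52 members, and none was given for H2AC12, H2BC19P, H3C11, H3C12, H4C1 and H4C3. The 250 bases before the start are printed, 5′ to 3′ on the gene's own strand, for 4 genes that were high with DNMT1 siRNA (H1-1, H1-5, H4C13 and H4C6) and for H2AC15, which differed most between the control groups. Capitals mark matches on either strand to CCAAT (the box bound by NF-Y), TATAAA (the TATA box), ATTTGCAT (the octamer bound by OCT1) or AAACACA (the element of H1 promoters), and no 2 matches overlap in these sequences. The stretches are chr6:26017788-26018037 (minus strand) for H1-1, chr6:27867589-27867838 (minus strand) for H1-5, chr6:27873535-27873784 (minus strand) for H4C13, chr6:26240143-26240392 (plus strand) for H4C6 and chr6:27838376-27838625 (minus strand) for H2AC15.
H1-1: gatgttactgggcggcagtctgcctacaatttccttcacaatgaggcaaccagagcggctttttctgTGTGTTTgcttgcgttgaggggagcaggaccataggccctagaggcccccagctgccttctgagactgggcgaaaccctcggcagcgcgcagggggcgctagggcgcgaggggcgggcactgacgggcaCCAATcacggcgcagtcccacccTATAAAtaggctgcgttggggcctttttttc
H1-5: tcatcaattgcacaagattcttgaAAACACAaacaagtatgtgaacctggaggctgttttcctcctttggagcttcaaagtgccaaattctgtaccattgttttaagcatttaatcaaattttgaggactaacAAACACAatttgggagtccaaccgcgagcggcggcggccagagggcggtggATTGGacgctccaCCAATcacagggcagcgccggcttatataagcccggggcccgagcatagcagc
H4C13: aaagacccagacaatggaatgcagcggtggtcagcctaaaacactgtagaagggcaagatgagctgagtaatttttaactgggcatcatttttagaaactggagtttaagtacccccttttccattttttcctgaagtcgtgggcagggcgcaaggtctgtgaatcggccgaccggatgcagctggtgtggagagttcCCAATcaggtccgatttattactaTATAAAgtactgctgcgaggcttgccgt
H4C6: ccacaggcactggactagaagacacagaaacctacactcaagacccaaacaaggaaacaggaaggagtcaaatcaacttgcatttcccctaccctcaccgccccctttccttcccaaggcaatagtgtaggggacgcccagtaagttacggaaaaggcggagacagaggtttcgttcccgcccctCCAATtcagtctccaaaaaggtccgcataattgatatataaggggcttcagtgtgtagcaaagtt
H2AC15: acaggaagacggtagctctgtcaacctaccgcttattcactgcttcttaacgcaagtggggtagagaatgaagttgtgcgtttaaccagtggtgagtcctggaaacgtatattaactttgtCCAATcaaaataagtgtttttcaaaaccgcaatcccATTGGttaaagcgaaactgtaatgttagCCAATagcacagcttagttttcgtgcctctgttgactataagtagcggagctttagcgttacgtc

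Motifs were counted on both strands in the 300 bases from 250 before to 50 after each start. CCAAT was in 44 of the 52 members' promoters and in 34.6% of all 35116 promoters. TATAAA was in 34 members' promoters and in 11.5% of all. ATTTGCAT was in 23, of which 10 belonged to the 13 H2A promoters and 13 to the 16 H2B promoters, and in 1.77% of all. AAACACA was in all 6 H1 promoters, in 1 H2A promoter and in 5.64% of all. Of the 11 H4 promoters 3 held CCAAT, those of H4C13, H4C6 and H4C9. The number of CpG dinucleotides, the sites that DNA methyltransferases methylate, was 17 in H1-1, 15 in H2AC15, 13 in H1-5, 12 in H4C13 and 8 in H4C6, beside a median of 11 over the members and 14 over all promoters. The 6 H3 promoters, that of H3C3 included, held between 6 and 10. The deposited table holds no methylation values, and a match to a motif describes the letters only.

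The question of whether DNMT1 depletion went with a change in histone transcripts was first put to the arrays themselves. In 6 members, H3C11, H1-1, H1-5, H3C3, H4C13 and H4C6, each of the 8 arrays with DNMT1 siRNA was above each of the 18 arrays without it. This was so of 25 of all 18417 genes (0.136%), and the opposite order held in 0 members and in 6 genes (0.0326%). These members encode H3 (H3C11 and H3C3), linker histones (H1-1 and H1-5) and H4 (H4C13 and H4C6). No H2A or H2B gene was among them.

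H3C11, an H3 gene of the HIST1 cluster, read 9.77 and 9.64 in siD1+3A, 9.65 and 9.68 in siDNMT1, 9.27 and 9.23 in siD1+3B, and 8.80 and 8.78 in siD1+3A+3B. The controls read 7.09 and 6.90 (siNTC-1) and 7.82 and 7.86 (siNTC-2). The other 14 arrays lay between 6.96 and 7.75. The lowest array with DNMT1 siRNA was thus above the highest without it, and the smallest rise was that of the triple depletion. Averaged over the 4 backgrounds in which DNMT1 siRNA was or was not given (none, 3A, 3B and 3A+3B), the difference was 1.96 ± 0.05 (adjusted p = 6.99e-14, limma, n = 8 against 10), the highest of all genes. It was 2.05 over the 3 backgrounds whose groups lie on the same side.

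H1-5, a linker histone gene, had values of 5.09 and 4.99 in siD1+3A+3B, 5.63 and 6.01 in siD1+3B, 5.98 and 5.78 in siD1+3A, and 6.11 and 6.19 in siDNMT1. The 18 arrays without DNMT1 siRNA lay between 4.19 and 4.70 with a median of 4.46. The groups did not overlap, and the triple depletion again lay nearest to the rest. The average effect was 1.25 ± 0.06 (adjusted p = 6.72e-11, limma, n = 8 against 10). H1-5 is a dim row, with a mean above that of 24.5% of genes.

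H1-1, another linker histone gene, read 5.72 and 5.69 in siD1+3A+3B, 5.97 and 6.13 in siD1+3B, 6.29 and 6.02 in siD1+3A, and 6.09 and 6.61 in siDNMT1, against 5.17 to 5.59 on the arrays without DNMT1 siRNA. Its duplicates in siDNMT1 were 0.52 apart, and its average effect was 0.67 ± 0.07 (adjusted p = 8.99e-07, limma, n = 8 against 10). H4C13, an H4 gene, read 5.67 and 5.40 in siDNMT1 and 5.19 to 5.32 in the 3 combinations with DNMT1 siRNA. Without DNMT1 siRNA its arrays lay between 4.56 and 5.05, and the highest of these were the siNTC-2 arrays. H4C6, another H4 gene, read 7.01 and 7.08 in siDNMT1, 6.63 to 6.71 in the combinations and 6.12 to 6.55 without DNMT1 siRNA. The average effects were 0.53 ± 0.04 for H4C13 and 0.49 ± 0.03 for H4C6 (adjusted p = 1.78e-08 and 1.78e-09, limma).

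H3C3, the remaining H3 gene, was separated by a narrow margin. Its lowest array with DNMT1 siRNA read 5.11, and its highest without it, a 3B+3L array, also 5.11 when rounded. The average effect was 0.30 ± 0.05 (adjusted p = 0.000127, limma).

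**Figure D2:**
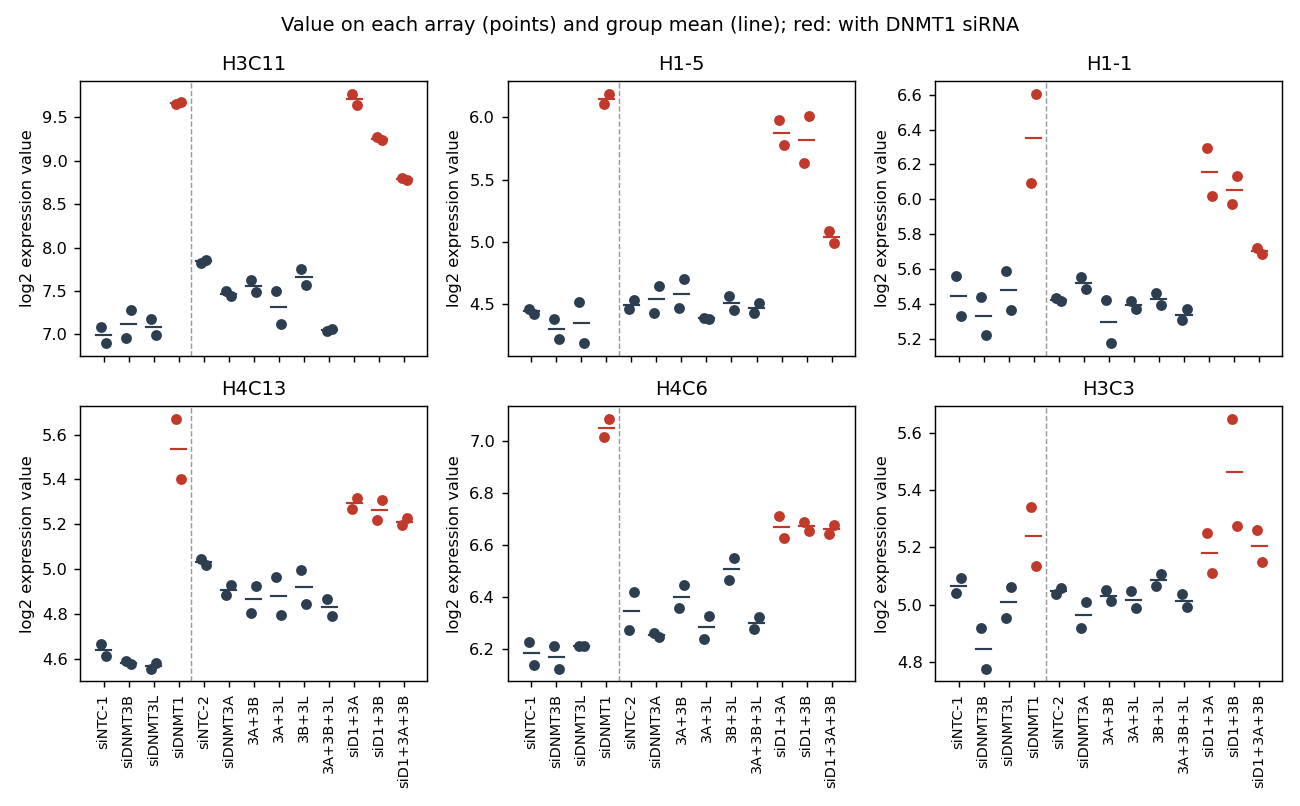
Log2 expression value on each array (points) and group mean (line) for H3C11, H1-5, H1-1, H4C13, H4C6 and H3C3 in the 13 groups of 2 arrays, red for groups with DNMT1 siRNA, the dashed line dividing the groups beside siNTC-1 from the rest. The vertical axes differ and do not start at 0. All red points lie above all dark ones in each panel, from 8.78 against 7.86 in H3C11 to a margin too small to see in H3C3.

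Over all 58 members, the average DNMT1 effect was higher in 24 and lower in 2, beside 21.9% of all genes called and 10.4% called higher. The median difference was 0.06 over the members and 0.00 over all genes. Among H1 genes 4 of 6 were higher, among H3 genes 5 of 8, among H4 genes 5 of 13, among H2B genes 6 of 17 with 1 lower (H2BC26, -0.14 ± 0.04), and among H2A genes 4 of 14 with 1 lower (H2AC20, -0.12 ± 0.02). The other large rises were in H2AC14 (0.56 ± 0.13), H2BC14 (0.46 ± 0.03) and H2AC15 (0.42 ± 0.04). Over the 3 same-side backgrounds H2AC15 was at 0.21 and still called, and H2BC26 was at -0.07 and not called. For the row shared by H4C14 and H4C15 the average effect was 0.16 ± 0.03 and called, but over the 3 same-side backgrounds it was -0.03 (adjusted p = 0.578, limma), and H3C2 went from 0.14 to 0.06 and was no longer called. Over those backgrounds 21 members were called, beside 17.5% of all genes. Of the marker lists, 5 pluripotency markers were higher and 1 lower of 9, and 0 lineage markers were higher and 2 lower of 15, in the same average, and their part in the histone values was not tested.

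Of the linker histones, H1-6, the testis-specific H1, was higher by 0.28 ± 0.08 (adjusted p = 0.0196, limma) and H1-2 by 0.12 ± 0.03 (adjusted p = 0.0126). H1-6 duplicates differed by up to 0.68, in siD1+3A. H1-2 was at 0.00 over the same-side backgrounds, where it was not called. H1-3 (0.03 ± 0.04) and H1-4 (-0.03 ± 0.03) did not pass the threshold. H1-4 lay between 13.51 and 13.74 with DNMT1 siRNA and between 13.45 and 13.91 without it, so the rise seen in H1-1 and H1-5 was not a property of every H1 gene.

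H1-5, H3C11 and H4C13 are consecutive protein-coding genes of the HIST1 cluster in RefSeq's gene order. Their neighbours on either side, H2AC16 and H3C12, moved by 0.08 ± 0.04 and 0.06 ± 0.04 and were not called. The next measured genes before H2AC16 are H2AC14, H2BC14 and H2AC15, which were all called higher. H2AC14 and H2BC14 are transcribed away from each other from promoter windows that share 256 bases. Of the 9 such H2A-H2B pairs with both genes measured, this was the only one in which both were called higher in the average effect. In the pair H2AC20-H2BC21 only H2AC20 was called, as lower, in H2AC25-H2BC26 only H2BC26, as lower, and in H2BC13-H2AC13 and H2BC8-H2AC8 only the H2B gene, as higher. H1-1, H3C3 and H4C6 lie elsewhere in the cluster.

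**Figure D3:**
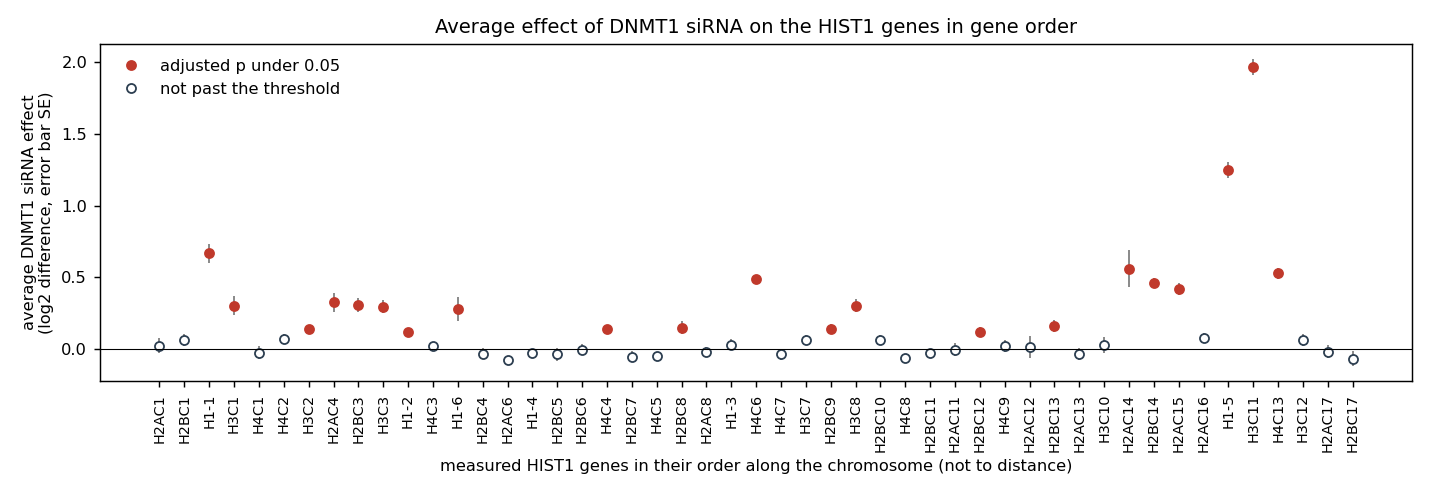
Average DNMT1 siRNA effect (log2 difference, error bars SE, 8 arrays against 10) of the 49 measured HIST1 genes in their order along the chromosome, filled where the adjusted p was under 0.05. H1-5, H3C11 and H4C13 stand side by side at 1.25, 1.96 and 0.53, between H2AC16 and H3C12 near 0.

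The second comparison set DNMT1 siRNA against DNMT3L siRNA at the same number of targets. It uses no control array, and both groups of each pair lie on the same side. In siDNMT1 against siDNMT3L, 15 members were higher and 1 lower (12.6% of all genes called, 6.23% higher and 6.33% lower). In siD1+3A against 3A+3L, 7 were higher and 0 lower, where only 0.744% of genes were called. In siD1+3B against 3B+3L, 15 were higher and 2 lower (20.3% called), and in siD1+3A+3B against 3A+3B+3L, 5 were higher and 0 lower (1.75% called). For fits without 1 array, here and below, no share of all genes is given. A fall in called members there is not read as particular to histone genes. Without 1 array the counts ranged from 10 to 12, 3 to 4, 10 to 13 and 1 to 3, in the same order. The count fell by over 1.5 times without siDNMT1 replicate 1 or siDNMT3L replicate 2 (10 each) and without siD1+3B replicate 2 (10). It did so too without any array of the other 4 groups: 3 without siD1+3A or 3A+3L replicate 1, 4 without replicate 2 of either, 2 and 3 without siD1+3A+3B replicates 1 and 2, and 1 and 3 without 3A+3B+3L replicates 1 and 2.

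H3C11 differed by 2.58, 2.39, 1.59 and 1.74 (each ± 0.11, adjusted p at most 5.8e-08, limma, n = 2 against 2). H1-5 differed by 1.80, 1.49, 1.31 and 0.57 (each ± 0.12), the last with adjusted p = 0.0192. H4C13 differed by 0.97, 0.41, 0.34 and 0.38 (each ± 0.08, adjusted p at most 0.0151). These 3 genes were called higher in all 4 comparisons, as were 19 of all genes (0.103%). The other 16 included GTSF1 and MAEL, which act with piRNAs in germ cells, HORMAD1, a meiotic chromosome axis protein, and ZFP57, which protects imprinted methylation. No member was lower in all 4, as 5 genes were (0.0271%). H4C6 missed the threshold in 1 comparison (0.84, 0.39, 0.16 and 0.36, with adjusted p = 0.0611 in siD1+3B against 3B+3L), and H1-1 in another (0.87, 0.76, 0.62 and 0.37, with adjusted p = 0.215 in the triple depletions).

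H3C11 remained called in all 4 comparisons under every alternative, each single array left out included. H1-5 did not: without siD1+3A+3B replicate 1 or 2 or 3A+3B+3L replicate 1 or 2, its difference in the triple depletions was 0.52, 0.62, 0.53 and 0.61 and was not called. H4C13 was lost in the triple depletions without the same arrays (0.40, 0.37, 0.42 and 0.34). H4C13 was also lost without siD1+3A replicate 1 or 2 (0.44 and 0.39) or 3A+3L replicate 2 (0.33), and without siD1+3B replicate 2 (0.30) or 3B+3L replicate 2 (0.27).

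The third comparison added DNMT1 siRNA to another depletion. In siD1+3A against siDNMT3A, 11 members were higher and 0 lower (9.62% of genes called, 4.32% higher and 5.29% lower). The largest rises were H3C11 (2.24 ± 0.11), H1-5 (1.34 ± 0.12), H2AC14 (0.92 ± 0.26), H1-1 (0.64 ± 0.14), H2AC15 (0.55 ± 0.09) and H4C6 (0.42 ± 0.06). H2AC14 was not called without either array of siD1+3A (0.85 and 1.00) or of siDNMT3A (0.95 and 0.90), nor was H1-1 without siD1+3A replicate 1 (0.50). In siD1+3A+3B against 3A+3B, 5 were higher and 0 lower (3.19% called, 2.17% lower): H3C11 (1.23 ± 0.11), H1-5 (0.45 ± 0.12), H4C13 (0.35 ± 0.08), H2BC14 (0.32 ± 0.07) and H4C6 (0.26 ± 0.06). Leaving out siD1+3A+3B replicate 1 or 3A+3B replicate 2 left 2 called members, and leaving out siD1+3A+3B replicate 2 or 3A+3B replicate 1 left 1. H3C11 was called in each. In siD1+3B against siDNMT3B, 31 were higher and 4 lower (33.8% called), but these groups lie on opposite sides of the division, and the list was led by members of both patterns: H3C11 (2.13 ± 0.11), H2AC15 (2.02 ± 0.09), H1-5 (1.52 ± 0.12) and the H4C14 row (1.34 ± 0.06).

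Against controls, the choice of control changed the counts and several directions. In siDNMT1, 11 members were higher and 15 lower against both control groups (30.7% of genes called), and 13 higher and 8 lower against siNTC-1 alone (19.8%). H3C11 was higher than in siNTC-1 by 2.67 ± 0.11, H1-5 by 1.71 ± 0.12, H1-1 by 0.90 ± 0.14, H4C13 by 0.90 ± 0.08 and H4C6 by 0.87 ± 0.06 (adjusted p at most 0.000124, limma, n = 2 against 2). The largest falls were in H4C9 (-0.39), H1-3 (-0.30) and H2AC25 (-0.30).

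In siD1+3A, 28 were higher and 2 lower than in both controls (27.4% called), and 23 and 7 against siNTC-2 alone (22.8%). In siD1+3B the counts were 37 and 1 (27.6%), and 24 and 3 (25.0%). The triple depletion siD1+3A+3B had 26 and 2 (24.4%), and 11 and 7 (18.6%). Against siNTC-2 alone H3C11 was higher by 1.87, 1.41 and 0.95 in these 3 groups (each ± 0.11), H1-5 by 1.38, 1.32 and 0.54 (each ± 0.12) and H4C6 by 0.32, 0.33 and 0.31 (each ± 0.06), all called. H1-1 (0.28 ± 0.14) and H4C13 (0.18 ± 0.08) in siD1+3A+3B were not called against siNTC-2, although their 2 arrays lay above both of its arrays. H2BC14 was higher by 0.64, 0.60 and 0.46 and H2BC8, another H2B gene, by 0.62 in siD1+3B, 0.51 in siD1+3A and 0.50 in siD1+3A+3B. The H4 gene H4C5 (-0.24, -0.27 and -0.16) and the H2A gene H2AC20 (-0.18, -0.30 and -0.19) were called lower in all 3 groups. Neither these rises of H2BC14 and H2BC8 nor these falls were particular to DNMT1 siRNA. Against siNTC-2, H2BC14 was also called higher in 3A+3B+3L (0.31), 3A+3L (0.29) and siDNMT3A (0.28). It was not called in 3A+3B (0.14) or 3B+3L (0.12). H2BC8 was also called higher in 3A+3L (0.63), 3A+3B+3L (0.43), 3A+3B (0.38) and 3B+3L (0.35), but not in siDNMT3A (0.23). H4C5 was also called lower than siNTC-2 in every depletion of that side without DNMT1 siRNA, from -0.24 in 3B+3L to -0.33 in 3A+3B. H2AC20 was called lower in 3A+3B+3L (-0.27) and 3A+3L (-0.26), but not in the remaining groups of that side without DNMT1 siRNA.

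The effect of DNMT1 siRNA differed with the other targets. With both 3A and 3B siRNA, the DNMT1 effect was smaller, differing from that alone by -1.01 ± 0.15 in H3C11, -1.23 ± 0.16 in H1-5, -0.53 ± 0.08 in H4C6 and -0.35 ± 0.10 in H4C13 (adjusted p = 0.000228, 7.61e-05, 0.000265 and 0.0296, limma). In all, 16 members differed (12.6% of genes called). Without siD1+3A+3B replicate 2 the count was 10. With 3A alone 12 members differed (12.9% called) and with 3B alone 31 (38.8% called), but of the DNMT1-responsive genes these included H4C6 with both (-0.37 ± 0.08 and -0.28 ± 0.08) and H3C3 with 3B (0.43 ± 0.12). H3C11 differed by -0.01 ± 0.15 with 3A and -0.11 ± 0.15 with 3B, neither called, and these values moved with the control. With siNTC-1 alone they were -0.43 (not called) and -0.54 (called), and with siNTC-2 alone 0.42 and 0.31 (not called). With 3A+3B, H3C11 was at -1.44 with siNTC-1 alone and -0.59 with siNTC-2 alone, called in both. H4C6 with 3B was at -0.20 with siNTC-2 alone and not called. The DNMT1 transcript itself was less reduced in siD1+3A+3B (-0.82) than in siDNMT1 (-1.35), and the part of this in the smaller histone effect was not tested. For H4C13 the call was lost with siNTC-2 alone as the control (-0.16), with only the groups compared or a trended and robust prior (-0.35 in both), and without siNTC-2 replicate 2 (-0.35), siDNMT1 replicate 1 (-0.22), siD1+3A+3B replicate 1 or 2 (-0.34 and -0.37) or 3A+3B replicate 2 (-0.29).

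H2AC15 differed in each of these interactions, by 1.53 ± 0.12 with 3A, 3.00 ± 0.12 with 3B and 1.08 ± 0.12 with 3A+3B. Here siDNMT1 and siDNMT3B lie beside siNTC-1, the other depletions beside siNTC-2, and the controls stand for the mean of both. With siNTC-1 alone as the control, the differences were 0.55, 2.02 and 0.10, the last not called.

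The second pattern was clearest between the control groups, which differ in no label but their name. In siNTC-2 against siNTC-1, 32 members were higher and 8 lower, beside 44.7% of all genes called and 24.2% called higher. The median difference was 0.31 over the members and -0.02 over all genes. H2A genes were higher in 9 of 14, H2B genes in 8 of 17 with 4 lower, H3 genes in 4 of 8 with 2 lower, H4 genes in 9 of 13 with 1 lower and H1 genes in 2 of 6 with 1 lower. The largest rises were in H2AC15 (1.96 ± 0.09), H2AC14 (1.46 ± 0.26), the row of H4C14 and H4C15 (1.23 ± 0.06), H3C10 (0.94 ± 0.12), H3C11 (0.85 ± 0.11) and H2BC26 (0.84 ± 0.09). Adjusted p was at most 0.000188 for these (limma, n = 2 against 2). The falls were smaller, led by H3C12 (-0.33 ± 0.08), H2BC12 (-0.31 ± 0.07), H4C1 (-0.31 ± 0.09) and H2BC8 (-0.30 ± 0.09).

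H2AC15, an H2A gene of HIST1, read 8.46 and 8.87 in siNTC-1, 8.59 and 8.74 in siDNMT1, 8.93 and 9.03 in siDNMT3B, and 8.84 and 8.93 in siDNMT3L. It read 10.57 and 10.67 in siNTC-2 and from 10.52 to 11.24 over all 18 arrays of that side. No array lay between 9.03 and 10.52. Beside siNTC-2, siD1+3A was highest (11.18 and 11.24) and 3B+3L lowest (10.52 and 10.53).

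The H4C14 row, an H4 gene of HIST2 on chromosome 1, lay between 11.07 and 11.32 on the 8 arrays of the siNTC-1 side and between 12.52 and 12.81 on the other 18. H2AC14 read 5.48 and 4.83 in siNTC-1, 6.31 and 5.33 in siDNMT1, and 6.39 to 6.50 in siDNMT3B and siDNMT3L, against 6.56 to 7.85 on the siNTC-2 side. Its groups barely separated, and its duplicates were 0.98 apart in siDNMT1. H2AC21, an H2A gene of HIST2, lay between 11.39 and 11.90 on one side and between 12.16 and 12.30 on the other. In all, 10 members (H2AC8, H2AC14, H2AC15, H2AC21, H2BC13, H3C2, H4C4, H4C9, H4C14 and H4C15) had all 18 arrays of the siNTC-2 side above all 8 of the other, beside 7.93% of all genes. None had them all below, as 4.79% of genes did. The division was drawn from rows without a gene symbol, so no histone value entered it.

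**Figure D4:**
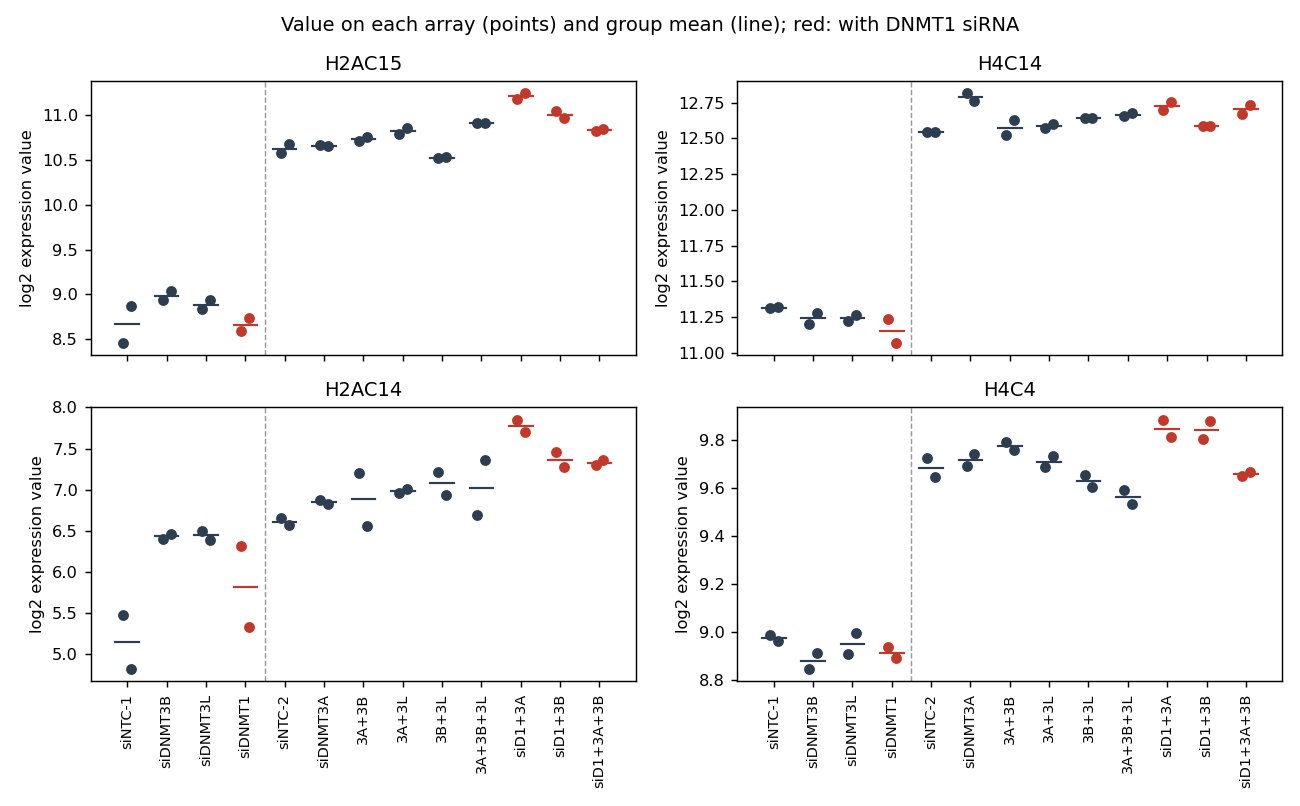
Log2 expression value on each array (points) and group mean (line) for H2AC15, H4C14, H2AC14 and H4C4 in the 13 groups of 2 arrays, red for groups with DNMT1 siRNA, the dashed line dividing the groups beside siNTC-1 (left) from those beside siNTC-2 (right). The vertical axes differ and do not start at 0. H2AC15 stays at or below 9.03 to the left of the line and at or above 10.52 to its right.

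Promoter-sharing pairs did not always move together between the controls. Both genes were higher in H2AC14-H2BC14, H2AC17-H2BC17, H2BC11-H2AC11 and H2BC4-H2AC6. In H2BC8-H2AC8 the H2B gene was lower (-0.30) and the H2A gene higher (0.54), from windows that share 268 bases. In H2AC25-H2BC26, a HIST3 pair, the values were -0.01 and 0.84, the latter called.

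Depletions without DNMT1 siRNA gave counts that depended on the control. In siDNMT3A, 19 members were higher and 2 lower against both controls (29.5% of genes called), and 8 and 6 against siNTC-2 alone (15.8%). In siDNMT3B the counts were 14 and 14 (35.6%), and 22 and 1 against siNTC-1 alone (24.2%), and in siDNMT3L 3 and 25 (33.2%), and 4 and 4 (19.2%). In 3A+3B they were 24 and 1 (26.7%), and 6 and 3 against siNTC-2 alone (12.6%), and without 3A+3B replicate 2 the first pair came to 16 called. In 3A+3L they were 17 and 4 (27.4%), and 8 and 12 (22.4%), in 3B+3L 25 and 1 (32.8%), and 4 and 1 (10.1%), and in 3A+3B+3L 17 and 3 (25.1%), and 9 and 10 (23.3%).

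Against the control of their own side, H2AC14, H1-3, H1-2 and H2BC8 were among the members called in these groups. In siDNMT3B the largest rises were H2AC14 (1.28, adjusted p = 0.0016), H3C10 (0.91), H2AC17 (0.83), H2BC5 (0.71) and H2BC11 (0.71), and H1-3 was lower (-0.36). In siDNMT3L, H2AC14 (1.30, adjusted p = 0.0020) and H2AC21 (0.45) were higher and H1-3 (-0.37), H2AC11 (-0.32) and H3C2 (-0.27) lower. H1-2 was higher than in siNTC-2 in 3A+3B (0.51), siDNMT3A (0.47), 3B+3L (0.42), 3A+3B+3L (0.37) and 3A+3L (0.36). H2BC8 was higher by 0.63 in 3A+3L, 0.43 in 3A+3B+3L, 0.38 in 3A+3B and 0.35 in 3B+3L. The H4 gene H4C8 was lower than in siNTC-2 in 3A+3L (-0.53), siDNMT3A (-0.53), 3A+3B+3L (-0.31) and 3A+3B (-0.29). It was not called in 3B+3L (0.02). With DNMT1 siRNA it was also lower in siD1+3A (-0.42) and siD1+3A+3B (-0.27), but not called in siD1+3B (-0.08). In 3A+3L, H2BC11 (-0.47), H2BC26 (-0.42) and H2AC6 (-0.39) were lower too.

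H3C11, high in every DNMT1 group, was lower than in siNTC-2 in siDNMT3A (-0.37, adjusted p = 0.0315), in 3A+3L (-0.53, adjusted p = 0.0021) and in 3A+3B+3L (-0.79, adjusted p = 4.7e-05). Against siNTC-1 it was higher by 0.48 and 0.32 in the first 2 of these, and the third (0.06) was not called. Without DNMT1 siRNA its group means ran from 6.99 in siNTC-1 through 7.05 in 3A+3B+3L, 7.08 in siDNMT3L and 7.12 in siDNMT3B to 7.84 in siNTC-2, and the first 4 of these overlapped in their arrays. The controls of H1-5 overlapped, with 4.47 and 4.42 in siNTC-1 and 4.46 and 4.53 in siNTC-2.

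The genes that handle histones were then counted from lists. Of 28 genes of histone gene control and transcript processing, 5 were higher and 1 lower in the average DNMT1 effect (21.9% of all genes called). NPAT, the activator of histone genes, was higher by 0.20 ± 0.02 (adjusted p = 1.1e-05, limma), and CDK2, which phosphorylates it, by 0.15 ± 0.04. SLBP, the stem-loop binding protein, was not called (0.08 ± 0.04), nor was LSM11 of the U7 snRNP (-0.11 ± 0.04). Against siDNMT3L, siDNMT1 had 0 higher and 2 lower of the 28 (12.6% called), with NPAT at 0.03 ± 0.05. In siD1+3A against 3A+3L, where 7 histone genes were higher, 0 of these 28, 0 of 28 chaperone genes, 0 of 15 histone variant genes and 0 of 39 DNA replication genes were called (0.744% of all genes called, limma). Lists of this size would hold few or no called genes at so low a share. The counts of 0 therefore cannot set these lists apart from other genes. At an unadjusted p under 0.05 the counts were 5, 3, 3 and 4. No share of all genes is given at that threshold, so these counts cannot be set against the 0.744%. Of the variants, H2AZ1 (0.15 ± 0.02) and H2AX (0.22 ± 0.04) were among 5 that were higher in the average effect, and MACROH2A2 was lower (-0.23 ± 0.04).

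Histone chaperones bring new histones to the replication fork. In the average DNMT1 effect 0 of the 28 genes of that list were higher and 4 lower, among them KMT5A, the H4K20 monomethyltransferase (-0.43 ± 0.03), and CHAF1B, a subunit of the chaperone CAF-1 (-0.19 ± 0.03). Of 39 DNA replication genes, 4 were higher and 13 lower, all by small amounts, such as RFC4 (-0.15 ± 0.02) and MCM6 (-0.13 ± 0.03). The share of all genes called in the average effect is given above. Beside it, the chaperone list had a smaller share called and the replication list a larger one. Between the controls 4 of the 39 were higher and 26 lower in siNTC-2 (44.7% of genes called), with MCM7 at -1.06 ± 0.05, while 32 histone genes were higher. Chaperone genes were higher in 5 and lower in 11 of 28, with NASP, which stores H3-H4, at -0.88 ± 0.07.

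Genes of the cell's stress responses (integrated stress, unfolded protein) also differed between the control groups. In siNTC-2 against siNTC-1, 20 of 23 were higher and 2 lower (44.7% of all genes called), for instance CHAC1, a glutathione-degrading enzyme (3.53 ± 0.12), and DDIT3, a stress transcription factor (1.63 ± 0.06). In the average DNMT1 effect most of the 23 were called lower, among them SESN2 (-0.88), DDIT3 (-0.68) and CHAC1 (-0.62). HSPA5 (0.14) and SDF2L1 (0.33) were called higher, and the share of all genes called in that effect is given above. In the 4 comparisons of DNMT1 with DNMT3L siRNA the counts higher and lower were 0 and 9 (12.6% of all genes called), 2 and 0 (0.744%), 2 and 19 (20.3%), and 15 and 0 (1.75%). The part of the stress genes in the histone values was not tested.

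Over the 13 group means, the genes most like H3C11 by Pearson's r were H1-5 (0.96), GTSF1 (0.96), MAEL (0.95), H1-1 (0.94), H4C13 (0.94), TKTL1 (0.93), FTL (0.93) and H4C6 (0.92). These values share their arrays and their normalization, and they describe this table only. Among the members, r with H3C11 was 0.79 for H1-6 and 0.15 for H1-4. The genes most like the mean of all members were TESMIN, SMAP1 and ST6GALNAC5 (0.96, 0.96 and 0.96). H1-2 (0.91) and H2AC12 (0.94) followed H2AC15, while H1-5 (0.10) and H1-1 (-0.02) did not.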

How the data were processed

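RNA of NCCIT cells was measured on 26 Affymetrix Human Gene 1.0 ST arrays, labelled from 250 ng of total RNA per the labels' protocols. The authors deposited log2 expression values per transcript cluster; the log base is inferred from their range (3.04 to 14.87), and array medians lay between 6.28 and 6.33. The submitters' processing notes name Partek. How signals were background-corrected, summarised and normalized is not given in the sources used here. Rows with 1 gene symbol (19460 of 33297) were kept, and the row with the highest mean was taken for each of 18417 genes, with no filter. A model of 13 group means over all 26 arrays was fitted with limma 3.58.1 (R 4.3.3, lmFit and eBayes, two-sided, Benjamini-Hochberg over all genes, threshold 0.05). It was tested on simulated data. The members and lists were chosen with earlier results of these data known. Per comparison the rule named H3C11, H1-5, H2AC14, the H1 genes and up to 6 rises and 6 falls past the threshold by size; not all are printed, and some other members were named after their values were seen. Alternatives were other filters, normalizations, variance settings, controls and arrays. Promoters are from RefSeq on GRCh38.p14; no array build is given in the sources used here.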

Additional observations from a re-analysis of the deposited data

Results flagged for a closer look

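The effect of DNMT1 siRNA differed between backgrounds by the test of the difference itself (limma, Benjamini-Hochberg over all genes, adjusted p under 0.05). With 3A siRNA minus without it, 12 members differed, with H4C6 at -0.37 and H2AC15 at 1.53. With 3B siRNA, 31 members differed, with H4C6 at -0.28 and H2AC15 at 3.00. With 3A+3B siRNA, 16 members differed, with H3C11 at -1.01, H1-5 at -1.23, H4C13 at -0.35, H4C6 at -0.53 and H2AC15 at 1.08. Of all genes, 12.9%, 38.8% and 12.6% differed in these comparisons. The 3A and 3A+3B effects compare groups beside siNTC-2, the 3B effect compares siD1+3B beside siNTC-2 with siDNMT3B beside siNTC-1, and the effect alone compares siDNMT1, beside siNTC-1, with both controls. With siNTC-1 alone as the control, H2AC15 was at 0.55, 2.02 and 0.10 with 3A, 3B and 3A+3B, the last not called, and H3C11 with 3A+3B was at -1.44. With siNTC-2 alone, H3C11 with 3A+3B was at -0.59, H4C13 with 3A+3B at -0.16 and H4C6 with 3B at -0.20, the last 2 not called. Without siD1+3A+3B replicate 2, 10 members differed with 3A+3B.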

How the results depend on the processing

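Each group had 2 arrays. With no detection calls, dim rows such as H1-5, H3C3 and H4C13 cannot be told from background signal, and without the dimmest 40% of genes 2 members were higher in all 4 comparisons with DNMT3L. The replicate numbers did not pair the arrays (same-numbered deviations correlated at -0.26 to 0.19 over 78 pairs of groups, above 0.1 in 9). With a replicate block, 26 members were called in the average DNMT1 effect, as without it, and 3 in all 4 comparisons; H1-5 in siD1+3A+3B against 3A+3B lost its call (0.45, adjusted p = 0.0599, limma). Against siNTC-1 alone, 33 members were called in siDNMT3A (45.5% of all genes), 8 in siDNMT3L (19.2%) and 38 in 3A+3B (44.2%). Against siNTC-2 alone, 18 were called in siD1+3A+3B (18.6%), 9 in 3A+3B (12.6%) and 5 in 3B+3L (10.1%), and 22 and 27 differed in the DNMT1 effect with 3A (26.4%) and with 3A+3B (26.2%). Array weights gave 9 in siD1+3A+3B against 3A+3B (7.55%) and 10 in siDNMT1 against siDNMT3L (7.17%), and a trended and robust prior gave 12 in siD1+3A against 3A+3L (1.48%). Fits of only the groups compared, with fewer arrays, gave 1 in siD1+3A+3B against 3A+3B (0.163%), 6 in siDNMT1 against siDNMT3L (0.782%), 3 in siD1+3A against 3A+3L (0.0760%), 1 in siD1+3A+3B against 3A+3B+3L (0.119%) and 1 (H3C11) in all 4. Directions turned with the control: against siNTC-1 alone H1-4 was at 0.024 in siDNMT1, 0.18 in siD1+3B, 0.14 in 3A+3L and 0.15 in 3A+3B+3L. H3C11 was at 0.12 in siDNMT3B, 0.0902 in siDNMT3L, 0.32 in 3A+3L and 0.0555 in 3A+3B+3L, H2AC15 at 0.32 in siDNMT3B and 0.22 in siDNMT3L, and H2BC11 at 0.0016 in 3A+3L. Against siNTC-2 alone H1-4 was at -0.0286 in siDNMT3A and -0.17 in siD1+3A, H3C11 at -0.37 in siDNMT3A and H2AC15 at -0.10 in 3B+3L. H4C14 and H4C15 were at -0.0308 over same-side backgrounds, an average chosen after seeing the data. Apart from the changes of control, the causes were not tested. Leaving out 1 array gave 16 to 25 called members in 3A+3B, 1 to 2 in siD1+3A+3B against 3A+3B, 10 to 12, 3 to 4, 10 to 13 and 1 to 3 in the 4 comparisons with DNMT3L, 10 to 18 in the DNMT1 effect with 3A+3B, and 1 to 3 in all 4. The ranges for the other counts stayed within 1.5 times.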
